A study of Homo sapiens with 36 samples.

Results

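The comparison described here is what propionate (PRO) adds to docosahexaenoic acid (DHA) in HepG2 cells after 24 h, taken as the 3 samples of DHA + PRO against the 3 samples of DHA alone, 6 of the 36 samples of the series. HepG2 is a line grown from a human hepatoma, and it keeps many functions of the hepatocyte. Both groups held cells in serum-free medium with 50 µM DHA, an omega-3 fatty acid given as a complex with bovine serum albumin from an ethanol stock, and the DHA + PRO group also received 70 µM PRO, dissolved in water. The same addition without DHA was given by 3 samples of PRO alone (70 µM) against 3 control samples (Ctrl), which received albumin, ethanol and DMSO in matching amounts. Protocatechuic acid (PCA, 20 µM), with and without DHA, made up the other 2 groups of 24 h, and all groups were also sampled at 6 h. Each sample is the pooled RNA of 3 replicates of 1 of 3 independent cultures, and the replicate numbers 1 to 3 were used to pair DHA + PRO with DHA.

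Propionate is a short-chain fatty acid that gut bacteria make from fibre, and the liver takes up most of what reaches it in the portal blood. Monocarboxylate transporters carry it into the cell, where it is activated to propionyl-CoA, carboxylated and converted to succinyl-CoA, a step that needs vitamin B12. In other settings short-chain fatty acids act through the receptors FFAR2 and FFAR3 and through histone acylation and deacetylases. The SREBP transcription factors drive the enzymes of cholesterol and fatty acid synthesis. DHA is known to lower the nuclear level of one of them, SREBP-1, and to engage the NRF2 response to oxidants.

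Of the 6 libraries, 5 held from 6016414 to 8397200 counts, and replicate 2 of DHA + PRO held 42326734, which was 6.225 times the median of the remaining 17 libraries taken at 24 h. Hepatocyte markers summed to 67900 to 71000 CPM, counts relative to the total of the library, in all 6 libraries, so the labelled cell type had its defining genes. Endothelial markers summed to 1.16 to 2.79 CPM. Leukocyte markers summed to 1630 to 2050 CPM, nearly all of it from LYZ, the gene of lysozyme, while PTPRC, CD3E and MS4A1, which define leukocytes, had no count in any of the 6. Fibroblast and mesenchymal markers summed to 77.8 to 108 CPM, but the fibrillar collagens stood out in 1 library. COL1A1, COL1A2 and COL3A1 had 75, 61 and 59 counts in DHA replicate 2, against 14, 4 and 3 in DHA replicate 1 and 0 in DHA replicate 3, and VIM had 15 there and 0 in both others. These 4 genes are named after their values were seen. In bulk RNA such as this, fewer cells of a type and less RNA per cell cannot be told apart.

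**Figure D1:**
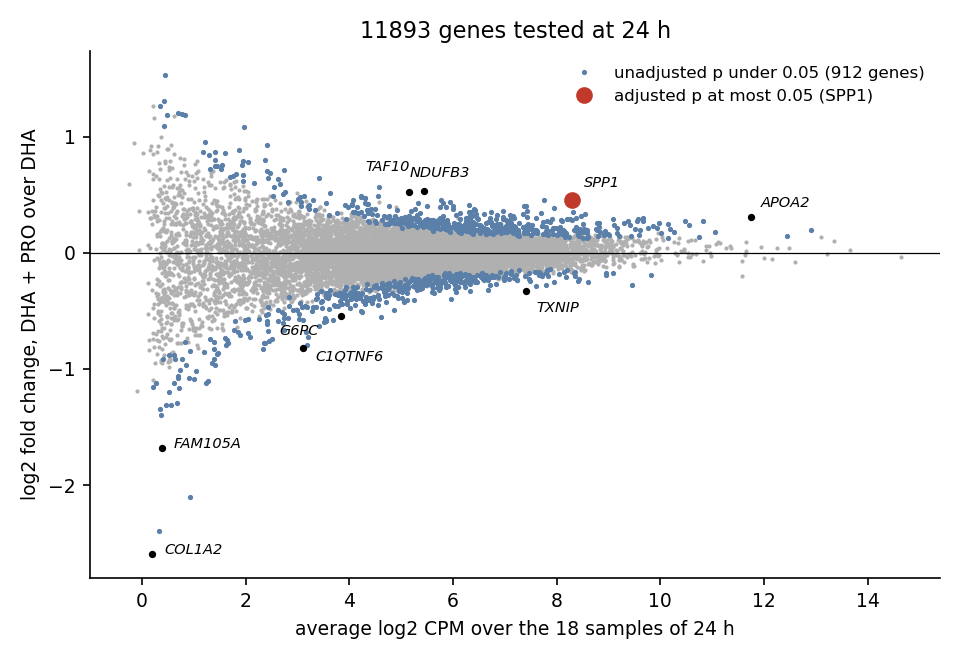
Log2 fold change of DHA + PRO over DHA (vertical axis) against the average log2 CPM over the 18 samples of 24 h (horizontal axis, log scale), 1 point per gene. SPP1 is the single gene past the adjusted limit (red), 912 genes with an unadjusted p under 0.05 are blue, genes named in the text are black, and the largest negative values belong to genes of low level such as COL1A2.

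Adding propionate to DHA changed 1 of 11893 genes tested at 24 h, and that gene was SPP1, which encodes the secreted phosphoprotein osteopontin and rose 1.37-fold. A gene was counted as changed at an adjusted p of at most 0.05 by edgeR's quasi-likelihood test, with the replicate number in the model (replicate block), and an average log2 CPM above 0. The share called was 0.00841% of tested genes for higher levels and 0% for lower ones. At an unadjusted p under 0.05 there were 495 genes higher (4.16%) and 417 lower (3.51%) with DHA + PRO. In 696 genes (5.85%) every DHA + PRO sample lay above every DHA sample, and in 589 (4.95%) every one lay below. The median log2 fold change of all tested genes was −0.0058, and 48.3% of them had a higher value.

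The measurement was precise enough to bound most genes. The median half-width of the 95% interval of a log2 fold change was 0.247, and for 93.4% of the tested genes the whole interval lay within −1 to 1, or within a doubling either way. Within −0.5 to 0.5 lay the interval of 73.1% of genes. Where the average log2 CPM was above 2, none of 10680 genes had an estimate beyond 1 in size, and 62 had one beyond 0.5.

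SPP1 (NM_000582) lies on the plus strand of chromosome 4 from 88896802 to 88904563 in hg19. Its level was 305, 339 and 332 CPM in the 3 DHA samples and 421, 432 and 486 CPM in the 3 DHA + PRO samples, so that the lowest sample with propionate lay above the highest without it. The means were 325 ± 18 and 446 ± 34.8 CPM (SD, n = 3). The log2 fold change was 0.45 (SE 0.0724, 95% interval 0.30 to 0.60, edgeR adjusted p = 0.0206), and the 3 replicate pairs gave 0.47, 0.35 and 0.55. The counts behind these values were 1872 to 2897 with DHA and 2537, 18212 and 3424 with DHA + PRO.

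**Figure D2:**
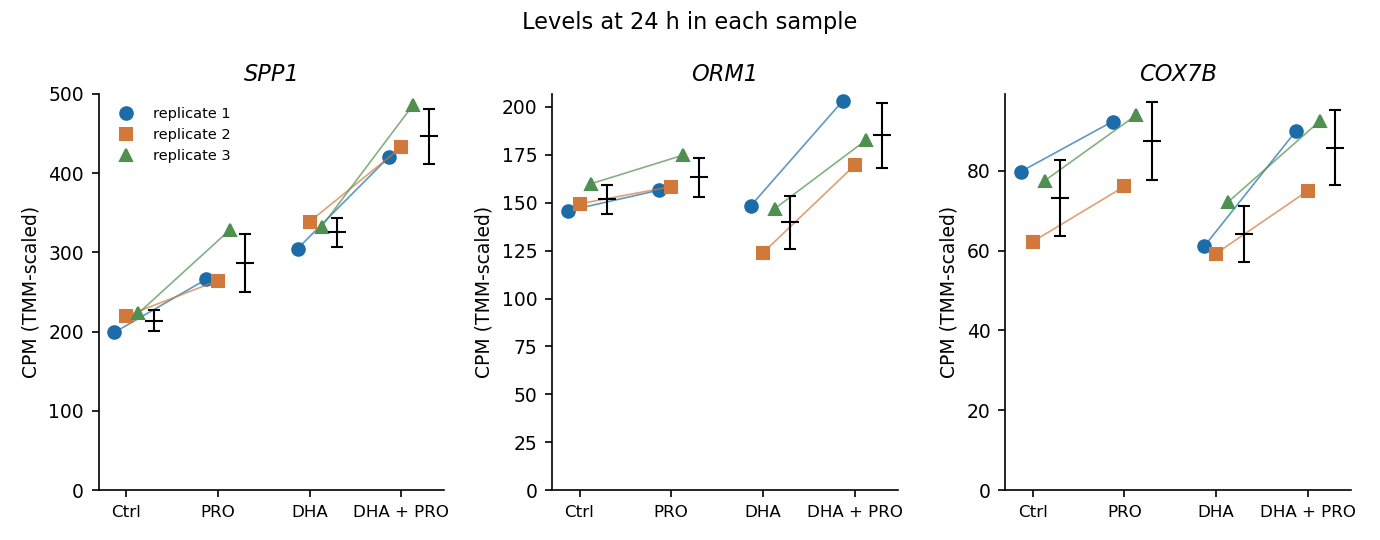
CPM on TMM-scaled library sizes (vertical axes, from 0) of SPP1, ORM1 and COX7B in the 4 groups of 24 h, with 1 symbol per replicate, lines joining the samples with and without propionate of the same replicate number, and mean ± SD of 3 samples beside them in black. SPP1 is higher with propionate in every pair, on both sides, while ORM1 differs by 0.32 to 0.45 on the log2 scale in the 3 pairs with DHA and by 0.10 between PRO and Ctrl.

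SPP1 had an order over the 4 groups that ran from Ctrl through PRO and DHA to DHA + PRO. It stood at 199, 219.7 and 223 CPM in the Ctrl samples and at 266, 264 and 328 CPM in the PRO samples, where the groups do not overlap. The log2 fold change of PRO against Ctrl was 0.42 (1.34-fold, adjusted p = 0.0695), which missed the limit, and the difference between the addition with and without DHA was 0.036 (adjusted p = 0.946). DHA alone against Ctrl, where 0.16% of genes rose, gave 0.61 (adjusted p = 4.97e-05), and DHA + PRO against Ctrl 1.06, or 2.09-fold. At 6 h the same addition to DHA gave 0.17 (adjusted p = 0.987). PCA added to DHA, which shares its 3 DHA samples with this comparison, gave 0.22.

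The call of SPP1 depended on the pairing, and it was lost when any 1 of the 6 libraries was left out alone. Without the replicate block the log2 fold change was 0.46 and the adjusted p 0.61. With 1 library left out the fold change ran from 0.42 to 0.49 and the adjusted p from 0.0655 to 0.228. Without replicate 2 of all groups SPP1 was called (log2 fold change 0.51, edgeR adjusted p = 0.00429), but not without either other replicate number. Other genes on the same list gave no call. Of 21 genes for osteopontin, its receptors, its relatives and the proteases that cut it, 6 were tested, among them the integrin subunits ITGAV (−0.19), ITGB1 (0.043) and ITGB5 (0.076), prothrombin F2 (0.065) and transglutaminase TGM2 (0.10). The receptor CD44 was too low to test, at 0.584 CPM or less in the 6 samples.

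The 250 bases before the SPP1 start site in the RefSeq promoter table are shown because SPP1 is the single gene that passed the test; the counts do not bear on which of these bases matter. They are chr4:87975464-87975713 on the plus strand of GRCh38.p14, printed 5′ to 3′ with 2 motifs in capitals:

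SPP1: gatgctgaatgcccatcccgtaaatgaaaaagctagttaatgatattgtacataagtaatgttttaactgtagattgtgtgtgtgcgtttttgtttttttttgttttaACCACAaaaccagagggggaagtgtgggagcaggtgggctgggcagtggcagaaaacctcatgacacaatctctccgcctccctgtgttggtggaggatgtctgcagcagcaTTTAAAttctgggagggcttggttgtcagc

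The first capitals mark ACCACA, the core bound by RUNX factors, which begins 142 bases before the start. The second capitals mark TTTAAA, which begins 30 bases before the start, where many promoters hold an AT-rich box. Either strand was searched, and the same windows of 35116 RefSeq promoters hold ACCACA in 11.0% and TTTAAA in 11.3% of cases. The E-box CACGTG, present in 6.34% of them, is not among these 250 letters.

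After SPP1, the 9 higher genes with the smallest p whose 3 pairs agreed in direction did not pass the adjusted limit, with adjusted p from 0.0782 to 0.167. All 10 of these higher genes, SPP1 included, had no overlap between the groups, beside 5.85% of all genes. The choice by p and by agreeing pairs in these same samples favours this, so it adds no further support. ORM1, the acute-phase plasma protein orosomucoid, lies on chromosome 9 from 117085303 to 117088759 in hg19 (plus strand) and stood at 148, 124 and 147 CPM with DHA and 203, 169 and 183 CPM with DHA + PRO. The fitted log2 fold change of ORM1 was 0.41 (SE 0.0746, adjusted p = 0.0782), and its counts can be split with the near-identical ORM2. COX7B, a subunit of cytochrome c oxidase, lies on chromosome X from 77154961 to 77160881 in hg19 (plus strand) and stood at 61, 59.3 and 72.1 CPM with DHA and 89.9, 75 and 92.4 CPM with DHA + PRO, a log2 fold change of 0.41 (SE 0.0780, adjusted p = 0.0782). In replicate pairs 1 to 3 the COX7B difference was 0.56, 0.34 and 0.36. TAF10, a subunit of the general transcription factor TFIID, lies on chromosome 11 from 6632048 to 6633475 in hg19 (minus strand) and had the narrowest DHA group, 33.5, 33.1 and 33.1 CPM, against 46.6, 50.8 and 45.3 CPM with propionate (log2 fold change 0.53, adjusted p = 0.139).

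Other higher genes came from several classes. ARRB2, the receptor adaptor beta-arrestin 2, went from 49.5, 41.4 and 43.8 CPM to 59.9, 64.8 and 59 CPM between the groups (log2 fold change 0.46). TMSB10, a thymosin that binds actin monomers, stood at 275, 244 and 262 CPM with DHA and 332, 325 and 339 CPM with DHA + PRO, a difference of 0.35. MKI67, the proliferation antigen Ki-67, gave 347, 295 and 328 CPM with DHA and 436, 374 and 411 CPM with DHA + PRO, and its 3 pairs lay close together at 0.33, 0.34 and 0.32. NDUFB3, a subunit of respiratory complex I, gave 32.6, 31 and 23.6 CPM with DHA and 45.6, 40.7 and 39.5 CPM with DHA + PRO, the difference being 0.52 (adjusted p = 0.167).

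On the lower side the smallest p was that of COL1A2 (adjusted p = 0.167), which rests on the counts of DHA replicate 2 given above and had no count in replicate 3 of either group. Among genes whose 3 pairs agreed in direction, the adjusted p of the 10 with the smallest p ran from 0.193 to 0.284. Of these 10, 8 had no overlap, beside 4.95% of all genes, which the way they were chosen favours as well. TXNIP, the thioredoxin-binding protein that follows glucose and restrains its uptake, lies on chromosome 1 from 145438438 to 145442628 in hg19 (plus strand) and stood at 173, 175 and 178 CPM with DHA and 143, 148 and 129 CPM with DHA + PRO. TXNIP had a log2 fold change of −0.33 (SE 0.0820, adjusted p = 0.193), beside −0.30 for PRO against Ctrl. CTGF, a matricellular protein and target of YAP signalling, had a difference of −0.25 with pairs of −0.24, −0.24 and −0.28, although its groups overlapped because the replicates differed in level. DNAJB9, a chaperone of the endoplasmic reticulum, was at 26, 32.6 and 22.3 CPM with DHA and 15.1, 19.9 and 20.3 CPM with DHA + PRO (log2 fold change −0.56), and the third pair differed by −0.14 where the other two gave −0.78 and −0.71.

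Lower values were also found for genes at low levels. C1QTNF6, a secreted C1q- and TNF-related protein, stood at 10.4, 12.6 and 9.79 CPM with DHA and 6.14, 5.96 and 7.24 CPM with DHA + PRO, and ZSCAN31, a zinc finger protein, at 8.79, 7.01 and 5.90 CPM with DHA and 4.48, 4.18 and 3.55 CPM with DHA + PRO. FAM105A had an estimate of −1.68, which rests on 1.95, 1.40 and 2.16 CPM against 0.829, 0.451 and 0.568 CPM. PLEKHA3 (−0.51), which binds phosphoinositides at the Golgi, GRB10 (−0.63), an adaptor that restrains insulin signalling, NFKBIZ (−0.49), a regulator of NF-kappaB, and GOLGA8B (−0.29), whose reads can be shared with its close copies, made up the rest.

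**Figure D3:**
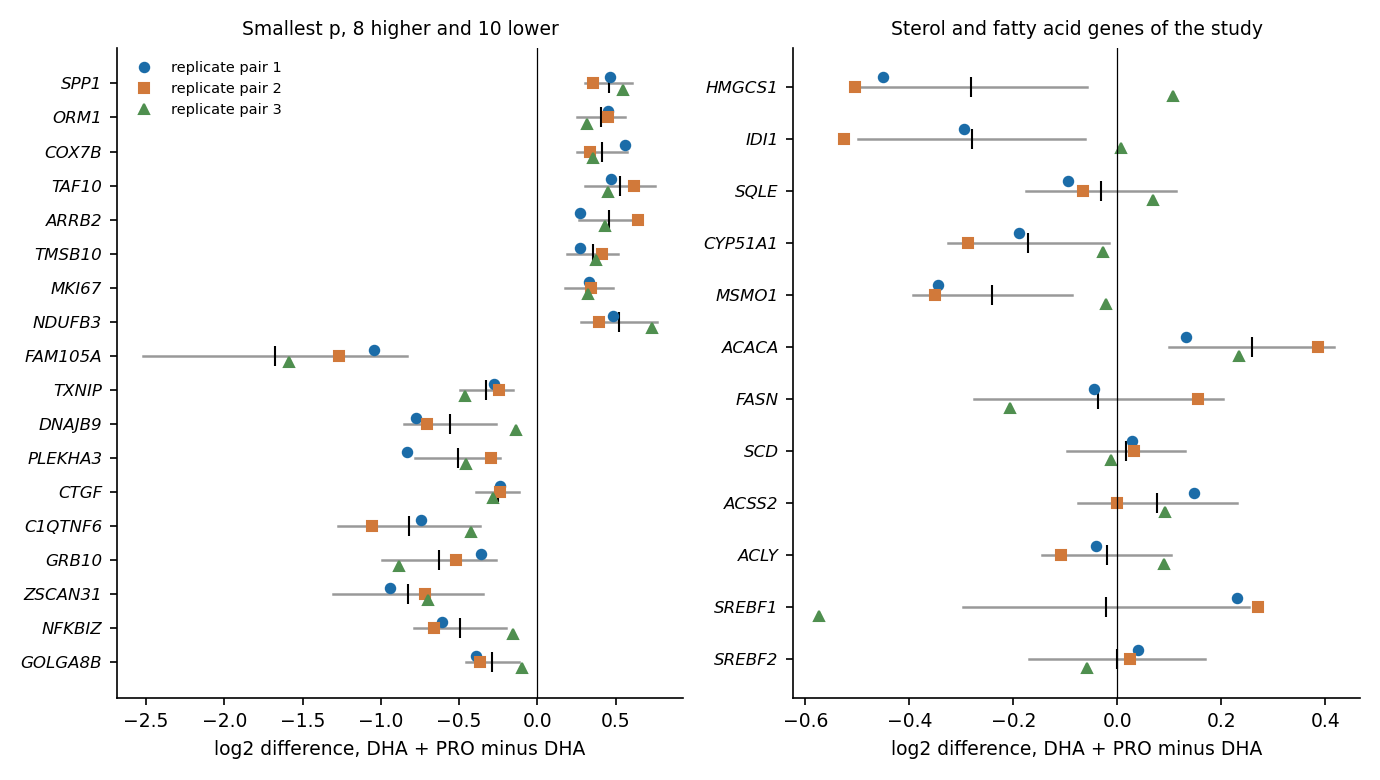
Log2 difference of DHA + PRO minus DHA (horizontal axes) for 18 genes among those with the smallest p (left) and for 12 sterol and fatty acid genes of the study (right). Coloured symbols are the 3 replicate pairs, black ticks the fitted log2 fold change and grey bars its 95% interval, and the sterol genes HMGCS1, IDI1, CYP51A1 and MSMO1 show pair 3 near 0 or above it while pairs 1 and 2 lie below.

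Enzymes of cholesterol synthesis showed no call when propionate was added to DHA, although HMGCS1, MSMO1, CYP51A1 and SQLE had each fallen with DHA against Ctrl (0.488% of all genes fell there). HMGCS1, which makes HMG-CoA, stood at 596, 672 and 501 CPM with DHA and 436, 474 and 539.6 CPM with DHA + PRO, a log2 fold change of −0.28 (95% interval −0.51 to −0.058, adjusted p = 0.553). The replicate pairs of HMGCS1 were −0.45, −0.50 and 0.11, so the third pair had the opposite sign. MSMO1, which removes methyl groups from sterols, was at 316, 353 and 276 CPM with DHA and 249, 277 and 272 CPM with DHA + PRO (log2 fold change −0.24, adjusted p = 0.386), IDI1, the isopentenyl diphosphate isomerase, gave −0.28 and CYP51A1, the lanosterol demethylase, −0.17. These 4 were the members of the steroid synthesis list with an unadjusted p under 0.05 (19%, beside 3.51% of all genes on the lower side), and in all 4 the third pair lay between −0.03 and 0.11. SQLE, squalene epoxidase, differed by −0.031 (95% interval −0.17 to 0.11). Over the 21 tested enzymes of steroid synthesis, 17 had a lower value and 4 a higher one, and the median was −0.086, with −0.043, −0.076 and 0.039 in pairs 1 to 3.

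For the genes that control sterol synthesis the 95% intervals held 0. SREBF2, the factor that drives the cholesterol enzymes, differed by −0.00088 (95% interval −0.17 to 0.17). SREBF1, its partner for the fatty acid enzymes, had −0.022 but a wide interval of −0.30 to 0.25, because pairs 1 and 2 were 0.23 and 0.27 and pair 3 was −0.57. On the list of SREBP processing and sterol uptake, 6 of 16 members were higher and 10 lower, with a median of −0.012. Its smallest p was that of STARD4, a cytosolic carrier of cholesterol, at 44, 51.2 and 47.2 CPM with DHA and 37.3, 36.2 and 43 CPM with DHA + PRO (log2 fold change −0.31, adjusted p = 0.521).

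In fatty acid synthesis ACACA had the smallest p. ACACA, acetyl-CoA carboxylase 1, makes malonyl-CoA and stood at 108, 105 and 109 CPM with DHA and 118, 138 and 129 CPM with DHA + PRO, with no overlap, a log2 fold change of 0.26 (95% interval 0.10 to 0.42, adjusted p = 0.338) and pairs of 0.13, 0.39 and 0.23. The interval of SCD, the stearoyl-CoA desaturase, was the narrowest of the study's genes shown, −0.10 to 0.13 around 0.016, at means of 2456 ± 53.2 and 2484 ± 85.5 CPM (SD, n = 3). FASN, the fatty acid synthase, gave −0.037 (−0.28 to 0.20), ACLY, which makes cytosolic acetyl-CoA from citrate, −0.021 (−0.15 to 0.10) and ACSS2, which makes it from acetate, 0.077 (−0.075 to 0.23). TECR and HSD17B12, which both act in the elongation of long chains, gave 0.18 and −0.24, the 2 other unadjusted p under 0.05. Over the list of fatty acid biosynthesis 10 members were higher and 10 lower, and the median was 0.0047.

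Genes that handle propionate itself showed no call. Of 22 listed genes, 18 were tested, 11 higher and 7 lower, with a median of 0.039 and 0.050, −0.014 and −0.054 in the 3 pairs. FFAR2, FFAR3 and the transporters SLC5A8 and SLC16A7 were too low to test. ACSS3, a mitochondrial acyl-CoA synthetase that activates propionate, had the smallest p of the list and no overlap, at 65.4, 63.4 and 62.2 CPM with DHA and 70.8, 76.2 and 71.8 CPM with DHA + PRO (log2 fold change 0.20, SE 0.0842, adjusted p = 0.563). PCCB, a subunit of propionyl-CoA carboxylase, differed by 0.18 and its partner PCCA by 0.030. MUT, the B12-dependent mutase that yields succinyl-CoA, gave −0.12 and SLC16A1, the monocarboxylate transporter MCT1, −0.12. In branched-chain amino acid degradation, which also ends in propionyl-CoA, 8 of 21 members were higher and none had an unadjusted p under 0.05, the smallest being that of HIBCH (−0.19). Among 26 tested histone deacetylases and acyltransferases, 11 were higher and none reached that p either. EP300, an acyltransferase, had the smallest p there (log2 fold change 0.14, pairs 0.17, 0.14 and 0.13), and HDAC1 and HDAC3 gave 0.0038 and 0.087.

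**Figure D4:**
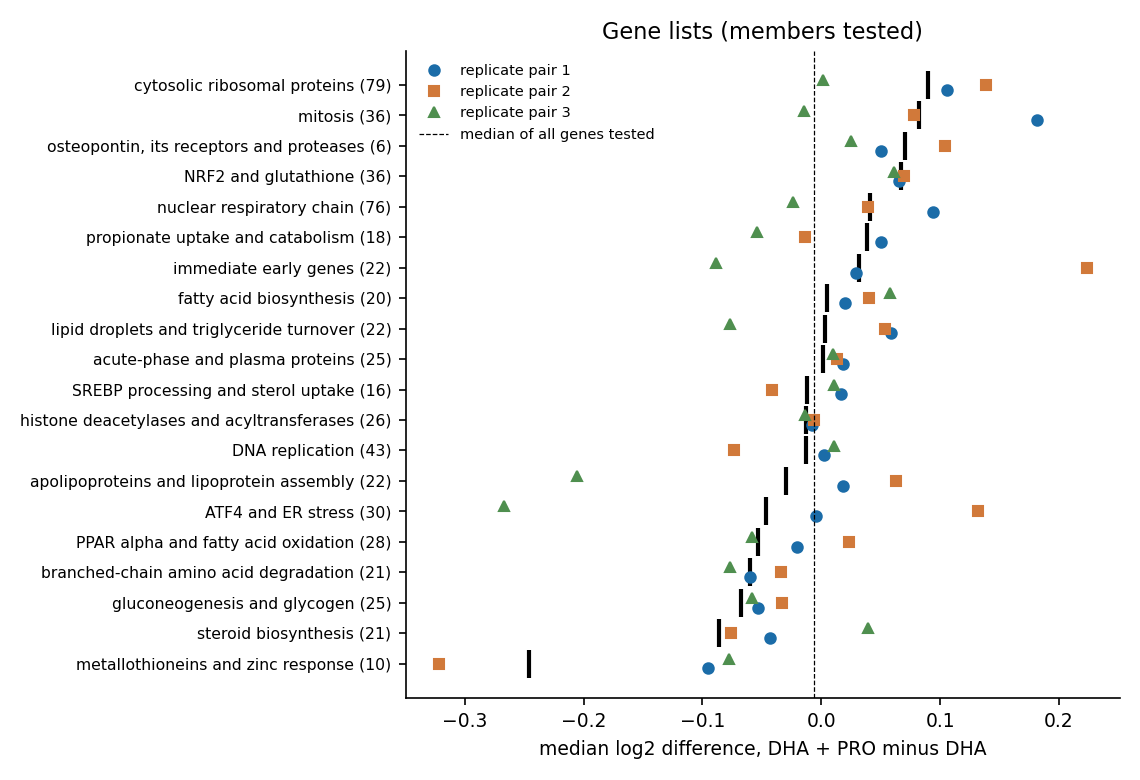
Median log2 difference of DHA + PRO minus DHA (horizontal axis) over the tested members of 20 gene lists, whose number is in brackets. Coloured symbols are medians within each replicate pair, black ticks medians of the fitted log2 fold changes, which need not lie among the 3, and the dashed line is the median of all genes tested (−0.0058), and the NRF2 and glutathione list has its 3 pairs closest together among lists above 0.05.

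The median of the NRF2 and glutathione list was above 0 in each of the 3 pairs, with no gene called. Of 36 tested members 25 were higher and 11 lower, 8 had an unadjusted p under 0.05 on the higher side (22.2%, beside 4.16% of all genes) and 1, the selenoprotein SEPP1 (−0.19), on the lower side. The median was 0.067, with 0.066, 0.070 and 0.061 in pairs 1 to 3. It was 0.041 without DHA + PRO replicate 2, 0.10 without DHA + PRO replicate 3, and 0.028 with the GC-content offset and without DHA replicate 3. Among the 8, named after their values were seen, were GPX2, AKR1C1, AKR1C2, AKR1C3, AKR1B10, NQO1 and FTL. GPX2, a glutathione peroxidase, stood at 432, 461 and 462 CPM with DHA and 545, 518 and 559 CPM with DHA + PRO (log2 fold change 0.26, adjusted p = 0.43). NQO1, a quinone reductase, gave 642, 608 and 605 CPM with DHA and 732, 669.8 and 681 CPM with DHA + PRO, with pairs of 0.19, 0.14 and 0.17. The aldo-keto reductase AKR1C3 gave 0.21 and AKR1C1 0.30, but their pairs were uneven, at 0.36, 0.081 and 0.49 for AKR1C1, and reads can be shared among these close copies. Other members had values nearer 0. GCLM and GCLC, the subunits of glutamate-cysteine ligase, gave −0.061 and −0.089, TXNRD1, thioredoxin reductase, −0.0085, and NFE2L2, which encodes NRF2, −0.024. With PRO against Ctrl the list had 28 of 36 members higher and a median of 0.10, and with the addition at 6 h the median was 0.014.

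Of 79 cytosolic ribosomal protein genes 56 were higher, 20 had an unadjusted p under 0.05 there (25.3%, beside 4.16%) and 17 had no overlap (21.5%, beside 5.85%). Their median was 0.090, but the pairs were uneven at 0.11, 0.14 and 0.0011. RPL11 went from 745, 730.5 and 707 to 882, 883 and 868 CPM between the groups, a log2 fold change of 0.27 (adjusted p = 0.167). Of 76 nuclear genes of the respiratory chain 48 were higher and 11 had an unadjusted p under 0.05 on that side (14.5%, beside 4.16%), led by COX7B, NDUFB3 and COX6B1 (0.36), and the median was 0.041 with 0.094, 0.039 and −0.024 in the pairs. Both lists are of short transcripts, with median counted lengths of 713 and 834 bp against 2921 bp over all tested genes. At 6 h both medians had the opposite sign, −0.084 and −0.069. With each library adjusted for GC content the 2 medians were 0.091 and 0.047. Over 10676 genes the fold change had a Pearson correlation of −0.123 with log counted length. Within pairs 1 to 3 this correlation was −0.138, −0.165 and 0.116. The part of transcript length in the 2 medians was not tested.

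Mitosis genes lay above DHA alone in 28 of 36 members, 6 of them at an unadjusted p under 0.05 (16.7%, beside 4.16% of all genes), with a median of 0.082. In none of the 36 did the groups not overlap, beside 5.85% of all genes on the higher side. The shift was uneven over the experiments, with 0.18, 0.078 and −0.014 in pairs 1 to 3. KIF20A, a kinesin of cytokinesis, had the smallest p and stood at 101, 84.2 and 91.6 CPM with DHA and 147, 98.9 and 99.5 CPM with DHA + PRO, where replicate 1 set the group apart. TPX2, a spindle protein, gave 0.21 and PLK1, a mitotic kinase, 0.14. Among DNA replication genes 18 of 43 were higher, and the 4 with an unadjusted p under 0.05 were all lower (9.3%, beside 3.51% of all genes). GINS1, a part of the replicative helicase, had the smallest p, at 109, 106 and 88.4 CPM with DHA and 83.3, 84.2 and 86 CPM with DHA + PRO (log2 fold change −0.26).

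The stress lists differed from pair to pair. For ATF4 and the stress of the endoplasmic reticulum, 13 of 30 members were higher and the medians were −0.0042, 0.13 and −0.27 in pairs 1 to 3. At an unadjusted p under 0.05, 6.67% of the 30 were higher and 13.3% lower, beside 4.16% and 3.51% of all genes. Members pointed both ways. MANF, a secreted chaperone named after its values were seen, stood at 76, 88.7 and 79.6 CPM with DHA and 93.7, 101 and 115 CPM with DHA + PRO (log2 fold change 0.33, adjusted p = 0.212), whereas DNAJB9 was lower and HSPA5, the chaperone BiP, gave 0.10. Of 10 tested genes for metallothioneins and the zinc response 9 were lower, with a median of −0.25 and wide intervals, since MT1X, for example, had 14, 14.8 and 9.65 CPM with DHA and 11.6, 8 and 10.4 CPM with DHA + PRO. The smallest p was that of SLC30A1, a zinc exporter, at 24.6, 27.2 and 27.5 CPM with DHA and 20.7, 20.9 and 24.6 CPM with DHA + PRO (log2 fold change −0.28, adjusted p = 0.617). Immediate early genes, with 13 of 22 higher, had medians of 0.030, 0.22 and −0.089 in the pairs.

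None of the lists of liver functions held a called gene. G6PC, the glucose-6-phosphatase that releases glucose, had the smallest p of the gluconeogenesis and glycogen list, at 9.28, 15.5 and 17.4 CPM with DHA and 6.80, 12.3 and 9.37 CPM with DHA + PRO (log2 fold change −0.55, 95% interval −1 to −0.091, adjusted p = 0.563). It gave −0.57 with PRO against Ctrl and −0.39 at 6 h, neither past the limit. Over that list 18 of 25 members were lower (median −0.068, pairs −0.054, −0.033 and −0.058). Acute-phase and plasma proteins were split into 13 higher and 12 lower, with ORM1 as the smallest p. Apolipoproteins and lipoprotein assembly were split into 10 and 12. At an unadjusted p under 0.05, 9.09% of this list were higher and 18.2% lower, beside 4.16% and 3.51% of all genes. APOA2, the second protein of HDL, stood at 2968, 2624 and 2962 CPM with DHA and 3722, 3601 and 3231 CPM with DHA + PRO with no overlap (log2 fold change 0.30, adjusted p = 0.193). APOA1, the main protein of HDL, gave −0.20, the smallest p of the 14 tested hepatocyte markers, of which 8 were higher and 6 lower. Its pairs were −0.27, 0.13 and −0.46, and its value was −0.37 without replicate 2 of all groups and −0.063 without replicate 3. FABP1, the liver fatty acid binding protein, stood at 627, 542 and 596 CPM with DHA and 722, 754 and 692 CPM with DHA + PRO, with no overlap and a log2 fold change of 0.30 (adjusted p = 0.352). It led the list of PPAR alpha and fatty acid oxidation, on which 10 of 28 members were higher (median −0.054). For lipid droplets and triglyceride turnover 12 of 22 were higher, and the smallest p was that of GPAM, the acyltransferase that starts glycerolipid synthesis (−0.17, adjusted p = 0.553).

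Some higher genes had a lower mean with DHA than in both Ctrl and DHA + PRO, and the DHA samples are shared by these differences. FABP1 gave −0.65 for DHA against Ctrl, 0.30 for DHA + PRO against DHA and 0.40 for DHA + PCA against DHA. For COX7B the same 3 values were −0.18, 0.41 and 0.47. For TAF10 they were −0.29, 0.53 and 0.39. DHA against Ctrl was called for FABP1 (adjusted p = 1.52e-04) but not for COX7B (0.471) or TAF10 (0.404), and the COX7B samples of DHA and Ctrl overlapped. No gene passed the limit for DHA + PCA against DHA (edgeR, 503 at an unadjusted p under 0.05).

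Genes that respond to DHA can be chosen in samples that this comparison does not use, namely DHA + PCA against PCA. There 20 genes rose (0.168%), with SPP1, AKR1B10, AKR1C1, NQO1 and GCLC among them, and 59 fell (0.496%), with SCD, FDFT1 and ACLY among them, these names being chosen after their values were seen. When propionate was added to DHA, 10 of the 20 had a higher value and 10 a lower one (median 0.0052). At an unadjusted p under 0.05, 7 of the 20 were higher and 2 lower, beside 4.16% and 3.51% of all genes tested. Of the 59 there were 28 higher and 31 lower (median −0.0067), with 2 higher and 4 lower at that p. SPP1 was the single called gene among the 79. The medians for the same 2 groups in the 3 pairs ran from −0.040 to 0.15 and from −0.034 to −0.0013.

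The addition of propionate without DHA, PRO against Ctrl, shares no sample with this comparison and changed 0 of 11893 genes by edgeR (1181 at an unadjusted p under 0.05, 28 by DESeq2's Wald test). The test of the difference between both additions gave 0 genes (991 at an unadjusted p under 0.05, 2 by the Wald test). Both counts depended on PRO replicate 2, without which PRO against Ctrl gave 807 genes and the difference 308. Across the same 10680 genes, which are not independent, the log2 fold changes with and without DHA had a Pearson correlation of −0.0091. Their own correlations with GC content had opposite signs, 0.266 with DHA and −0.456 without it over 10082 genes. The part of GC content in the −0.0091 was not tested. Of the 10 higher genes with the smallest p all 10 were also higher with PRO against Ctrl, and of the 10 lower ones 8 were also lower. Over all genes tested, 47.9% were higher with PRO against Ctrl. Of the 495 genes higher here at an unadjusted p under 0.05, 324 were also higher with PRO against Ctrl and 171 lower. Of the 417 lower ones, 197 were also lower and 220 higher. ORM1, TAF10, ARRB2 and NDUFB3 nevertheless had values of 0.10, 0.087, 0.010 and 0.064 there, and the unadjusted p of the difference for these 4 ran from 0.00281 to 0.0118. ORM2, the near-identical copy of ORM1, gave 0.22 with DHA and 0.26 without it. FABP1 gave −0.095 without DHA (unadjusted p of the difference 0.00466), and none of these differences passed after adjustment.

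At 6 h, DHA + PRO against DHA changed 0 of 11872 genes (edgeR, 448 at an unadjusted p under 0.05), and the difference between 24 h and 6 h was called for 0 of 12046 (627 at an unadjusted p under 0.05). The correlation of the fold changes at both times across 10675 genes was 0.029. Of the 10 higher genes 3 were also higher at 6 h, and of the 9 lower genes tested there 8 were also lower. Over all genes tested at 6 h, 47.9% were higher. The values of the 8 ran from −0.28 for DNAJB9 (SE 0.179) to −0.035 for CTGF (SE 0.0883). COX7B gave −0.020 at 6 h and MKI67 0.20, against 0.41 and 0.33 at 24 h.

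**Figure D5:**
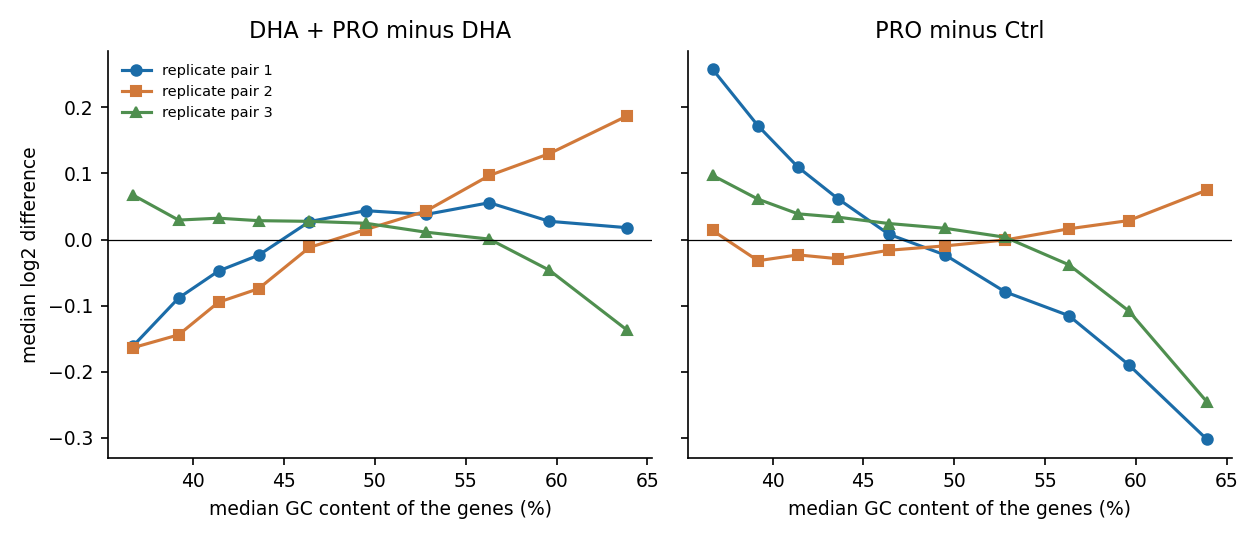
Median log2 difference (vertical axis) over 10 bins of genes ordered by GC content (horizontal axis, percent, 1008 or 1009 genes each) for the 3 replicate pairs of DHA + PRO minus DHA (left) and of PRO minus Ctrl (right). With DHA, pair 2 climbs from −0.16 to 0.19 and pair 3 goes from 0.067 to −0.14.

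The 3 replicate pairs differed along the GC content of the transcripts. Over 10082 genes, the difference within a pair had a Pearson correlation with GC content of 0.195, 0.468 and −0.248 in pairs 1 to 3, and the fitted fold change one of 0.266. PRO against Ctrl had one of −0.456. The differences of pair 1 correlated with those of pair 2 at 0.236, and those of pair 3 with pairs 1 and 2 at 0.0257 and −0.081. Genes with an unadjusted p under 0.05 on the higher side had a median GC content of 52.6% and a counted length of 2179 bp, those on the lower side 41.8% and 3300 bp, and all tested genes 48.2% and 2921 bp.

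With each library adjusted for GC content by a spline whose own degrees of freedom were not counted, 64 genes passed, 56 higher and 8 lower, of 11218 tested (0.571%). SPP1 then had a log2 fold change of 0.56 and an adjusted p of 6.44e-06. Among the 56 were 5 ribosomal protein genes, 4 of the respiratory chain, AKR1C3 of the NRF2 list, ORM1, APOA2, MKI67, TAF10 and ARRB2, and among the 8 were TXNIP, DNAJB9, C1QTNF6, GOLGA8B and ING5, some of these named after their values were seen. The other 3 were COL1A1, COL1A2 and COL3A1, whose lower values came from DHA replicate 2, and without that library COL1A2 gave 0.33. No steroid or fatty acid synthesis gene was among the 64, but HMGCS1 passed with this offset and without DHA + PRO replicate 3 (log2 fold change −0.32, adjusted p = 0.0313). With 1 of the 6 libraries left out as well, a setting chosen after seeing the data, the count ran from 6 to 66, and 4 genes passed in every such case, SPP1, COX7B, NDUFB3 and NME4, a mitochondrial nucleoside diphosphate kinase at 190.1, 160.5 and 197 CPM with DHA and 249, 261 and 236 CPM with DHA + PRO. Without the replicate block the GC adjustment left 0 genes (631 at an unadjusted p under 0.05).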

How the data were processed

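Gene expression was measured by RNA-seq (poly(A) libraries, TruSeq RNA v2, HiSeq1500). The authors deposited 1 table of raw read counts per gene for 36 samples, made with STAR on hg19 (GRCh37) and the iRNA-seq pipeline, with a counted length per gene. Versions are not given in the sources used here. The table holds 18932 genes, and all its sample columns belong to the series.

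From these counts, edgeR 4.0.16 in R 4.3.3 was fitted to the 18 samples of 24 h with TMM scaling, its own filter on low counts by group, and terms for group and replicate number (replicate block), and tested by quasi-likelihood with Benjamini-Hochberg adjustment over all genes tested. Calls needed an adjusted p no higher than 0.05 together with a mean log2 CPM over 0. CPM values per sample are on TMM-scaled totals, and a difference within a pair adds a prior count of 2. The 6 h samples were fitted alone, and both times together for their difference. DESeq2 1.42.0 and limma 3.58.1 gave alternatives, and GC content, from the transcripts of the reference, entered as a spline offset per library in another. The code was tested on simulated data. Figures were drawn with matplotlib 3.10.9.

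The replicate number pairs the samples by the choice made for this comparison. Deviations of DHA and DHA + PRO samples of the same number from their group means correlated at 0.195, 0.0072 and 0.142, against −0.057 on average for different numbers and 0.153 on average for the same number over all pairs of groups at 24 h. No 2 of the 6 libraries were duplicates. P-values of the 24 h comparisons rest on the spread left among all 18 samples of 24 h after the terms for group and replicate number. Counting error alone did not account for the differences between libraries. Even the closest 2 of the 6 differed by more than it gives, with 3.73 as chi-square for each degree of freedom.

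The comparison, the gene lists and the genes named were chosen with earlier results of these data known. Named are each called gene, the 10 higher and 10 lower genes of smallest p whose 3 pairs had the same sign, the sterol and fatty acid genes the study names, and the member of smallest p of each list. Others carry a remark that their values were known when they were picked, or belong to a list and serve to describe it. A few of the genes this rule names are not reported here. Promoter sequence is from RefSeq (GRCh38.p14).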

Additional observations from a re-analysis of the deposited data

How the results depend on the processing

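The count of 1 gene for DHA + PRO against DHA at 24 h stayed at 1 with only the 6 samples fitted, DESeq2 size factors, upper quartile scaling and limma voom. Thinning the deep library to the median depth of the others also left the count at 1. The count was also 1 with calls limited to an average log2 CPM above 2, which acts after adjustment and could not remove SPP1. It was 0 without the replicate block (527 at an unadjusted p under 0.05), so the pairing decides the call of SPP1 (adjusted p = 0.61 without it). It was 37 by DESeq2's Wald test, 14 by edgeR's likelihood ratio test, 2 by the robust fit (SPP1 and ORM1), 14 with no filter on low counts and 64 with the GC-content offset. It ran from 0 to 2 with single samples or replicate numbers left out (2 without DHA replicate 1, COL1A2 and COL3A1). SPP1 was called under 19 of 29 settings, which include the log2 CPM limit of 2 and settings chosen after seeing the data. With 1 of the 6 libraries left out it was called in 0 of 6 plain fits. With the GC-content offset as well, chosen after seeing the data, it was called in all 6. Of the settings chosen after seeing the data, the GC-content offset gave 0 without the block, 52 with the deep library thinned, and 34, 6 and 52 leaving out DHA replicates 1, 2 and 3, or 10, 15 and 66 leaving out DHA + PRO replicates 1, 2 and 3. PRO against Ctrl went from 0 to 28 by the Wald test, 88 with no filter and 48 with the GC-content offset, and its range with samples or replicate numbers left out was 0 to 807. The difference between both additions went from 0 to 2, 46 and 10 under the same 3 settings, with a range of 0 to 308. In both, the high end was reached without PRO replicate 2. At 6 h and for the difference between the times the count was 0 under every alternative run. Without the replicate block no other count of these comparisons moved.

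Signs turned for genes whose values lay near 0 or at low counts. SREBF1 was 0.000948 by limma voom and 0.079 and 0.062 with the GC-content offset leaving out replicate 3 of DHA or of DHA + PRO. SREBF2 was 0.00015 in the 6 samples alone and 0.0075 with the deep library thinned. SCD was −0.020 and −0.0014 with the GC-content offset leaving out DHA replicate 2 or DHA + PRO replicate 1. COL1A2 was 0.33 and CLDN5 −0.31 with that offset leaving out DHA replicate 2 or DHA + PRO replicate 2, respectively. With samples or replicate numbers left out, the log2 fold change ran from −0.13 to 0.077 for FASN, from −0.0098 to 0.036 for SCD, from −0.070 to 0.028 for ACLY, from −0.18 to 0.26 for SREBF1, from −0.041 to 0.061 for SREBF2, from −3.26 to 0.29 for COL1A2 and from −0.51 to 1.01 for CLDN5. The cause was not tested. Of 1359 values of single genes at other settings 1209 kept sign and side of the limit, 114 passed it where they had not, 10 lost it and 26 turned sign. Of 724 list medians 614 moved by less than the spread of the 3 pairs.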
